A study of Drosophila melanogaster with 2 samples.

Results

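DREF binding was examined at 10 chaperone genes of Drosophila melanogaster, out of 13945 protein-coding genes on 6 chromosome arms, with chromosome 4 counted as an arm. The genes were listed by name. They are 6 chaperones made in unstressed cells, called constitutive here (Hsc70-3, Hsc70-4, Hsc70-5, Hsc70Cb, Hsp60A and Hsp83), 3 that are induced by heat (Hsp26, Hsp27 and Hsp68), and Hsf, which encodes the heat shock transcription factor. All 10 were found in the annotation, Hsc70Cb under its other symbol Hsp110. A gene was called bound when the summit of a peak in the conservative list lay within 250 bp of any annotated transcript start. Conservative is the authors' name for one of their thresholded lists of reproducible peaks made from both replicates, and the sources used here do not say how it differs in construction from the other.

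The study mapped DREF by chromatin immunoprecipitation and sequencing in whole embryos of the strain Dref-GFP, aged 0 to 24 hours, which carry DREF fused to eGFP as a transgene. An antibody to GFP precipitated the fusion protein from chromatin sonicated to fragments of 200 to 800 bp. There was 1 group with 2 biological replicates, embryo sex was not recorded, and the labels mention no heat treatment. Neither the promoter of the fusion gene nor the state of the untagged Dref gene is given in the labels, and embryos of all stages and tissues were mixed. The values used are the authors' peak signals. They are not stated to be scaled for depth, and read depth is unknown, so they rank peaks within a list and do not measure occupancy between libraries.

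DREF is a zinc finger protein that binds the DNA replication-related element (DRE), the palindrome TATCGATA, near the starts of many genes used by every cell. Constitutive chaperones fold new and imported proteins in the cytosol, the endoplasmic reticulum and the mitochondrion, whereas heat-inducible chaperones protect proteins during stress. Heat-inducible genes are switched on by the heat shock factor, which binds heat shock elements, arrays of the unit nGAAn in alternating orientation.

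DREF peaks lay at all 6 constitutive chaperone genes and at 1 of the 3 heat-inducible genes, Hsp27. Hsf was not bound in the conservative list. The background for these counts was 4272 of the 13945 genes, or 30.6% (95% Wilson interval 29.9 to 31.4, for the sampling of genes only). The 6 constitutive genes were therefore bound at a share above the background. Among them, Hsp83 was called from a summit 241 bp from its start and 237 bp from that of another gene, CG14965. The share of the 3 heat-inducible genes rests on Hsp27 alone, and 3 genes are too few to place it against the background. The genes were chosen with earlier results of these data known, so no test was made on either count. Expression and open chromatin in the embryo were not measured here, and their part in the contrast was not tested.

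The sequences under 6 of the 7 bound summits show how the DRE was represented, and that of Hsc70-5 is not shown here. Each is printed 5′ to 3′ along the strand of the gene, from 80 bp before the summit to 80 bp after it or to 10 bp after the gene start, whichever came first. Capitals mark ATCGAT, the inner palindrome of the DRE, and CGATA, the motif of the insulator protein BEAF-32, on either strand. Every DRE holds ATCGAT, and holds CGATA on both strands, so these motifs overlap. The sequence is that of Release 6, which is dm6. The windows are chr3L:14036901-14037028 (plus strand) for Hsc70Cb, chrX:11108351-11108491 (plus) for Hsp60A, chrX:11807118-11807278 (minus) for Hsc70-3, chr3L:3192648-3192808 (plus) for Hsp83, chr3R:15242522-15242682 (plus) for Hsc70-4 and chr3L:9383843-9384003 (plus) for Hsp27.
Hsc70Cb: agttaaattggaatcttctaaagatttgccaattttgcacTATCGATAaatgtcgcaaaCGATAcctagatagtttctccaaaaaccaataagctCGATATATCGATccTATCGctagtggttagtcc
Hsp60A: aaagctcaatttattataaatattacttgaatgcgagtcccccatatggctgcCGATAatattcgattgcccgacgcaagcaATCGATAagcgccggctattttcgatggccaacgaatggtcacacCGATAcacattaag
Hsc70-3: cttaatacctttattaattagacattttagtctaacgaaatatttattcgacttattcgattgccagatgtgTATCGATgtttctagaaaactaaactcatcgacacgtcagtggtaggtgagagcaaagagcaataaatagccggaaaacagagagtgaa
Hsp83: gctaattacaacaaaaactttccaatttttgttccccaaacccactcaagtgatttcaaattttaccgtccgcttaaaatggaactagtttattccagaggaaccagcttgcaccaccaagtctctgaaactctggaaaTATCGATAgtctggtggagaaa
Hsc70-4: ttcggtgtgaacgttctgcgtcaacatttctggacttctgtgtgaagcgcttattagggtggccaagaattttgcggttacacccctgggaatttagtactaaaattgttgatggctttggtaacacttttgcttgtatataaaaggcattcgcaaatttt
Hsp27: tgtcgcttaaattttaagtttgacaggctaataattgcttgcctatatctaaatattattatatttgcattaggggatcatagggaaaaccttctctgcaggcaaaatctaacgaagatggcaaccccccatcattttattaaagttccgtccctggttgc

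An exact DRE lay within 100 bp of the summit at Hsc70Cb and Hsp83, 2 of the 7 bound members, against 19.99% of the 5292 conservative summits on the arms. With up to 1 mismatch the DRE was also found at Hsp60A and Hsc70-3, which made 4 of 7 against 43.9% of all summits. Positions in the motif are counted from 1 at its 5′ end, with the DRE base first. At Hsp60A the site AATCGATA (T1A) was centred 4.5 bp from the summit, and at Hsc70-3 the site TATCGATG (A8G) was also centred 4.5 bp from the summit. The exact DRE of Hsp83 was centred 62.5 bp from its summit. Hsc70Cb carried the exact DRE 36.5 bp from its summit, with TATCGATC (A8C) at 23.5 bp and TATCGCTA (A6C) at 32.5 bp. No DRE with up to 1 mismatch lay within 100 bp of the summits of Hsc70-4, Hsc70-5 and Hsp27, the 3 bound members of lowest signal. These matches describe the letters and do not show which site was bound.

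Hsc70Cb had the strongest peak of the 10 genes. It encodes a large relative of the Hsp70 proteins that exchanges their nucleotide. Its peak, chr3L:14036821-14037159, reached 4634 in the conservative list, with 1752 for replicate 1 and 2903 for replicate 2. It ranked 93rd of 5355 peaks, with the summit 38 bp before the start used by 7 of the gene's 8 transcripts. The antisense RNA gene asRNA:CR42871 also starts within 250 bp of this summit, so the peak cannot be assigned to Hsc70Cb alone. By signal in both replicates, the most similar of 4219 bound genes compared were Mob4 and Rab2, which had identical values of 1764 in replicate 1 and 2938 in replicate 2. Their summed absolute log2 difference from Hsc70Cb over the 2 replicates was 0.03.

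Hsp60A, the mitochondrial chaperonin, was next. Its peak, chrX:11108103-11108593, reached 2037 in the conservative list, with 733 for replicate 1 and 1312 for replicate 2, and the summit lay 51 bp upstream of the start. These 2 genes were the only members above 908, the median signal of the 4272 bound genes, whose quartiles were 228 and 1935. Hsc70Cb exceeded Hsp60A by 2.27-fold in the conservative list and was higher in each replicate.

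Hsc70-3 encodes the Hsp70 of the endoplasmic reticulum, known as BiP in other animals. Its main peak, chrX:11807079-11807311, had signals of 682, 232 and 454 in the conservative list, replicate 1 and replicate 2, with the summit 81 bp upstream of the most upstream of its 4 starts. A second peak, chrX:11806397-11806506, lay in an intron of the gene, 64 bp upstream of an internal start used by 2 of the 5 transcripts. Its signals were 174, 65.1 and 106, and its summit was 781 bp from the main one. Hsc70-3 was the only one of the 10 genes with conservative summits at separate starts. A further peak of signal 206, at chrX:11807362-11807553, had its summit 283 bp upstream of the first start, beyond the 250 bp limit.

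Hsp83 encodes Hsp90, which is made without heat and induced further by it. Its call came from the weaker of a pair of summits in the peak chr3L:3192354-3192890. The weaker summit had signals of 429, 174 and 259.6 in the conservative list, replicate 1 and replicate 2. It lay 241 bp upstream of the first Hsp83 start, just inside the limit, and 488 bp upstream of the second. It was also 237 bp from the start of CG14965, a divergent gene whose start is 478 bp from that of Hsp83. The other summit, with signals of 1894, 720.3 and 1159, lay 23 bp from the CG14965 start and 214 bp from the weaker one. It was thus 4.41-fold stronger and outside the limit for Hsp83. The peak interval did not reach either Hsp83 start. Replicate 1 alone listed a further weak summit, of 20.1, 17 bp from the second Hsp83 start. The next gene outside the limit was Hsp68, at 935 bp.

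Hsc70-4 and Hsc70-5 had low signals. Hsc70-4 is the main cytosolic Hsp70 of unstressed cells, and its peak, chr3R:15242528-15242688, had signals of 269, 127 and 149.6 in the conservative list, replicate 1 and replicate 2. The summit was 85 bp upstream of the first of its 6 starts in the conservative list and 46 bp farther upstream in replicate 2 than in replicate 1. Hsc70-5 encodes the mitochondrial Hsp70, and its peak on 2R at 14256013 to 14256146 had signals of 172, 91.9 and 87.7. This summit lay 12 bp upstream of the downstream start, within the 5′ UTR of the transcript from the other start. The divergent neighbour CG8531, named after its values were seen and whose start is 301 bp away, had a separate peak of signal 166.

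**Figure D1:**
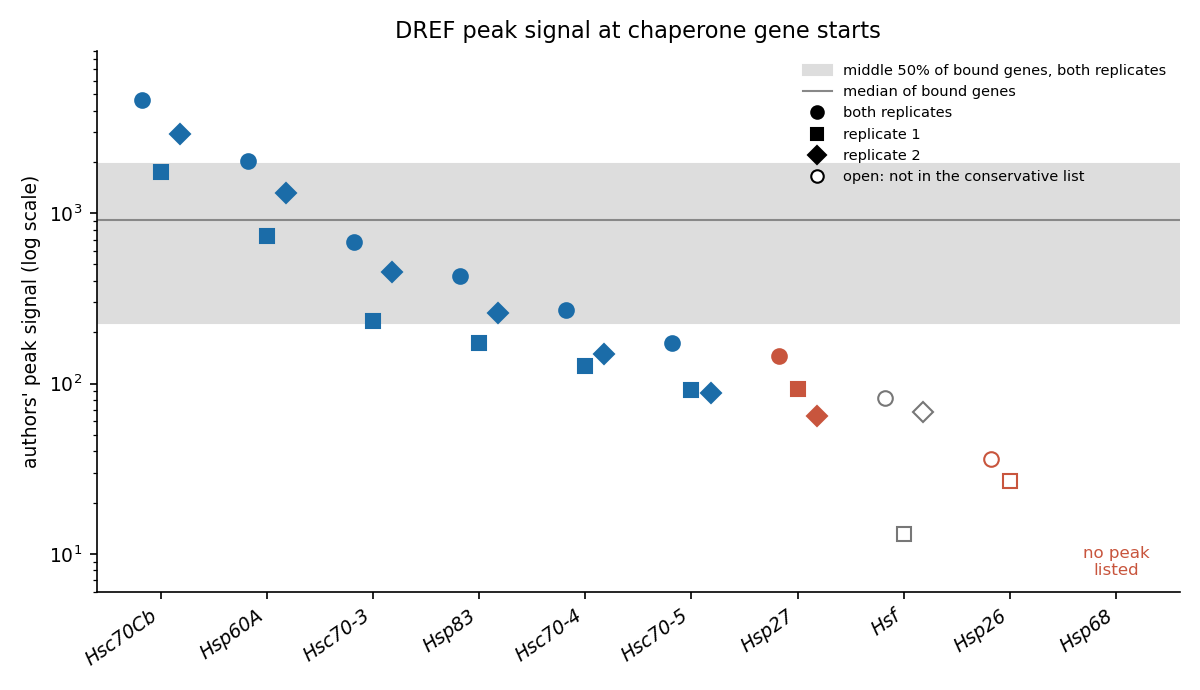
The authors' peak signal (log scale) at the starts of the 10 genes in the conservative list, replicate 1 and replicate 2, with constitutive genes in blue, heat-inducible genes in red and Hsf in grey. Open symbols are peaks of the ranked lists that are not in the conservative list. The band and line give the quartiles and median of bound genes in the conservative list, and do not apply to the replicate points. In the conservative list Hsc70Cb and Hsp60A lie above the median of 908, and Hsc70-5 and Hsp27 lie below the lower quartile of 228. Hsp68 has no peak in any list.

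Hsp27 was the heat-inducible gene with a peak. It encodes a small heat shock protein. The peak, chr3L:9383765-9384080, had a summit 140 bp upstream of the start, and it reached 144 in the conservative list, with 92.9 for replicate 1 and 64.6 for replicate 2. It ranked 3358th of 5355, with a −log10 q-value of 2.28, against 3.78, the ceiling of that column, at 5 of the 6 constitutive genes. Hsp27 had the lowest signal of the 7 bound members, 32.1-fold below Hsc70Cb, and 15.3% of bound genes were lower. This fold was 18.9 in replicate 1 alone and 44.9 in replicate 2 alone. It was in the thresholded list of each replicate. Of the 4219 bound genes compared, Nrx-IV, with 91.4 and 64.0 in the replicates, and Atox1, with 91.5 and 68.9, were nearest to Hsp27, at summed absolute log2 differences of 0.04 and 0.12.

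The order of the 7 bound members was the same in both replicates, except for Hsc70-5 and Hsp27. Hsc70-5 was below Hsp27 in replicate 1 and above it in replicate 2, so their order is not fixed by these data. The replicate ranges of Hsc70-3 and Hsp83 also overlapped, although Hsc70-3 was higher in each replicate. The ranges of the other neighbouring genes in the order did not overlap. Each range also spans the difference in scale between the 2 libraries, so overlap or its absence does not measure how firm the order is. With 2 replicates no test of these differences was made. Replicate 2 was higher than replicate 1 by a median of 1.58-fold over 4247 bound genes. At the 5 strongest members the ratio of replicate 2 to replicate 1 was 1.66 at Hsc70Cb, 1.79 at Hsp60A, 1.96 at Hsc70-3, 1.495 at Hsp83 and 1.18 at Hsc70-4. It was 0.95 at Hsc70-5 and 0.70 at Hsp27, the only members that were lower in replicate 2. Bound genes with signals of 100 to 300 had a median ratio of 1.35, with quartiles of 1.09 and 1.68, so both of these genes fell below the lower quartile for their range of signal.

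**Figure D2:**
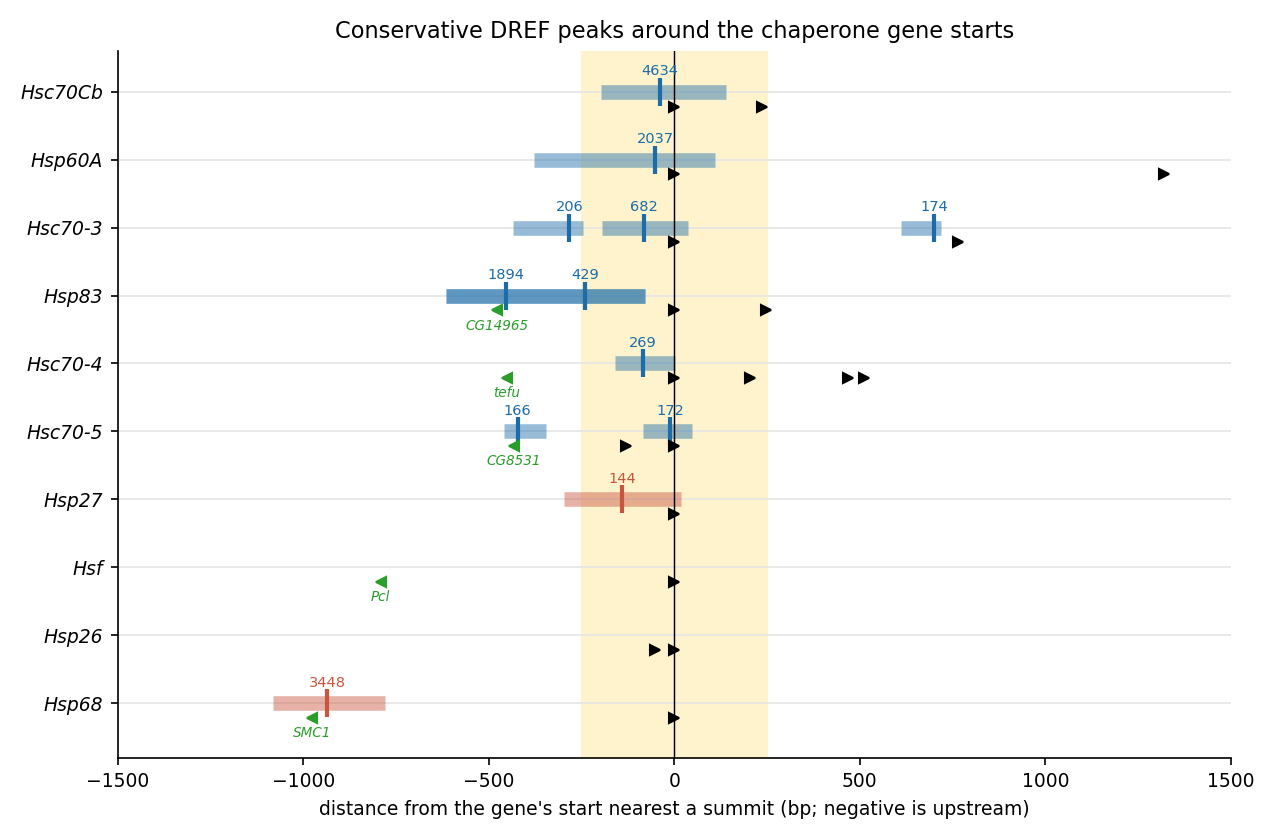
Conservative peaks within 1500 bp of each gene, plotted by distance in bp from the gene's start nearest a summit, with upstream to the left. Bars are peak intervals, ticks are summits with their signals, black arrowheads are the gene's own starts and green arrowheads those of divergent neighbours, and the yellow band is the 250 bp limit. The Hsp83 summit of 429 sits just inside the band beside the 1894 summit at CG14965, and the 3448 summit near Hsp68 sits at the start of SMC1.

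Neither Hsp26 nor Hsp68 was bound. Hsp26 encodes another small heat shock protein. The ranked list of both replicates, which also holds peaks below the authors' threshold, had a peak of signal 36.3 at 69 bp from an Hsp26 start. Replicate 1 listed a peak of 26.8 there, and replicate 2 listed none. Such peaks are common, since 63.3% of all genes had some peak of this ranked list within 250 bp of a start. Among the 4558 unbound genes with such a peak the median was 36.8, close to the Hsp26 value. The nearest conservative summit was 2861 bp away, in the coding sequence of Hsp22, with a signal of 78.6.

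Hsp68, a heat-inducible relative of Hsp70, had no peak within 250 bp of its start in any of the 8 deposited lists. Its nearest conservative peak, chr3R:24058089-24058393, was strong, at 3448 in the conservative list, with 1228 for replicate 1 and 2235 for replicate 2. That summit was 935 bp upstream of Hsp68 and 42 bp from the start of the divergent gene SMC1, which encodes a cohesin subunit. The starts of Hsp68 and SMC1 are 977 bp apart.

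Hsf had a weak peak whose status differed between lists. Its peak 6 bp from the start had a signal of 82.2 in the authors' other thresholded list of both replicates and was missing from the conservative list. Replicate 2 listed it at 68.4 within its threshold, and replicate 1 at 12.98 outside its threshold. In the other thresholded list Hsf was thus bound, with 31.4% of all genes. It was bound in the list of replicate 2, with 28.7% of all genes, and unbound in that of replicate 1, with 26.9%. The nearest conservative summit was 6100 bp away at pAbp, with a signal of 2086.

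Calls for the other 9 genes were also compared across lists. In the thresholded list of replicate 1 alone the constitutive genes were bound in 6 of 6 cases and the heat-inducible genes in 1 of 3. In that of replicate 2 alone the constitutive count was 5, because the Hsp83 summit was 252 bp from the start, and the heat-inducible count was again 1. With a limit of 100 bp, which 25.6% of all genes met, Hsp83 and Hsp27 lost their calls, which left 5 constitutive genes and no heat-inducible gene. A limit of 500 bp, met by 34.5% of all genes, left the counts at 6 and 1, as did a q-value of 0.05 or less, met by 28% of all genes. Where the peak interval had to cover a start, as at 27.8% of all genes, Hsp83 was lost and the counts were 5 and 1. Among conservative peaks above the list's median signal of 289, found at 21.6% of all genes, Hsc70Cb, Hsp60A, Hsc70-3 and Hsp83 were bound, and Hsc70-4, Hsc70-5 and Hsp27 were not.

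Promoters of the heat-inducible genes are shown because they differ in matches to GAANNTTC and in binding. Each runs 5′ to 3′ along the gene from 200 bp before a start that has a TATA box. Capitals mark GAANNTTC, a pair of heat shock element units facing each other, and TATAAA, on either strand. The pair facing away from each other, TTCNNGAA, was not searched for and is not marked. The Release 6 (dm6) windows are chr3L:9377398-9377575 (minus strand) for Hsp26, chr3L:9383863-9384072 (plus) for Hsp27 and chr3R:24057301-24057510 (minus) for Hsp68.
Hsp26: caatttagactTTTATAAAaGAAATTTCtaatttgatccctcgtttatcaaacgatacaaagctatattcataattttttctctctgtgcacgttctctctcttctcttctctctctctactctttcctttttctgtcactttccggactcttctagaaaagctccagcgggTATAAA
Hsp27: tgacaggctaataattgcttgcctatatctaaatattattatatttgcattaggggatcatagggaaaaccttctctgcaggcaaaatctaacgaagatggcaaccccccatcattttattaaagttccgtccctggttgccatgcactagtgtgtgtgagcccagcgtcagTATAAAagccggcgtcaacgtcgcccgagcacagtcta
Hsp68: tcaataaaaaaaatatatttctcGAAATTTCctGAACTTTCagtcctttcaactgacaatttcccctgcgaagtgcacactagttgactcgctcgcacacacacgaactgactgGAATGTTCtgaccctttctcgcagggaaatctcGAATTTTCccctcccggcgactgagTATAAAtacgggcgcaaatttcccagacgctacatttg

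In the windows from 250 bp before to 50 bp after any start of a gene, GAANNTTC occurred at 2 of the 3 heat-inducible genes, at 4 positions in Hsp68 and 1 in Hsp26, and not at Hsp27, the bound one. It also occurred at 4 of the 6 constitutive genes, namely Hsc70-4, Hsc70Cb, Hsp60A and Hsp83. Over all genes 12.0% had it, with 12.0% of bound and 12.0% of unbound genes. Genes with more starts had more windows. At the start nearest the DREF summit, GAANNTTC was present in 2 of the 7 bound members, 108 bp before the start of Hsc70Cb and 157 bp before that of Hsc70-4. At Hsp60A and Hsp83 it belonged to the window of another start. TTCNNGAA was not counted, so these counts do not cover every pair of units. It stands unmarked, as ttctagaa, in the sequences printed for Hsp26 and Hsc70-3. The Hsp68 sequence holds it as ttctcgaa and ttcctgaa, where the capitals belong to the overlapping GAANNTTC. A longer form, GAANNTTC followed by NN and GAA, was present at Hsp68 and Hsc70-4 and in 0.567% of all genes. No match says only that these letters are not in the window. Natural heat shock elements depart from the consensus, and units in another arrangement or farther upstream were not counted.

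The DRE was in the promoter windows of Hsc70Cb and Hsp83 and of none of the 3 heat-inducible genes, against 10.2% of all genes, 29.05% of bound genes and 1.82% of unbound genes. ATCGAT was present at 4 of the 6 constitutive genes and none of the heat-inducible ones, against 26.3% of all genes, 57.9% of bound genes and 12.4% of unbound genes. CGATA, which 53.0% of all genes, 81.9% of bound genes and 40.3% of unbound genes had, was present at all 6 constitutive genes, at Hsp26 and at Hsf. GAGAG, the site of GAGA factor, was present at 36.3% of genes and was most frequent at Hsc70-3, with 12 matches over its 4 starts, and at Hsp26, with 6. GGTCACAC, the core of the promoter motif called motif 1, was found at Hsp60A alone among the 10, against 8.71% of all genes. TATAAA anywhere in the window was found in 9 of the 10, Hsf being the exception, and in 51.2% of all genes.

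Among other genes of the chaperone system, the co-chaperones were bound most often. These cooperate with Hsp70 and Hsp90 as J-domain proteins, nucleotide exchange factors and adaptors. Of 25 matched, 18 were bound, or 72.0%, against 30.6% of all protein-coding genes. Their median signal was 1099, against 556 for the 6 constitutive genes and 908 for all bound genes. The strongest were mrj (4634), a J-domain protein, Roe1 (3346), the mitochondrial exchange factor, Sec63 (3328), the J-domain protein of the translocon, Cdc37 (3316), which brings kinases to Hsp90, and STUB1 (3166), a ubiquitin ligase. Another annotated gene or element also starts within 250 bp of the summits of mrj, Cdc37, STUB1 and some other bound co-chaperones. Those signals cannot be assigned to the co-chaperone alone. The first 5 unbound by name were CG1416, CG9920, Hsc20, Jdp and stv. Of the thresholded lists, only that of replicate 2 had a peak at CG1416, 5 bp from its start, with a signal of 166.

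Of 11 further heat-inducible genes, comprising 6 Hsp70 genes and Hsp22, Hsp23, Hsp67Ba, Hsp67Bb and Hsp67Bc, none was bound in any list or setting tried, against the same 30.6% of all genes in the conservative list. The Hsp70 genes are nearly identical copies, so reads from them may not map to a single place, and their calls are uncertain. Of 8 other genes of the chaperone families, 1 was bound, or 12.5%, namely Trap1, the mitochondrial Hsp90, at 256. The 8 are relatives of the constitutive chaperones apart from l(2)efl, which encodes a small heat shock protein and was not bound. Those first by name among the unbound were Gp93, the Hsp90 of the endoplasmic reticulum, Hsc70-1, Hsc70-2, Hsp60B and Hsp60C.

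**Figure D3:**
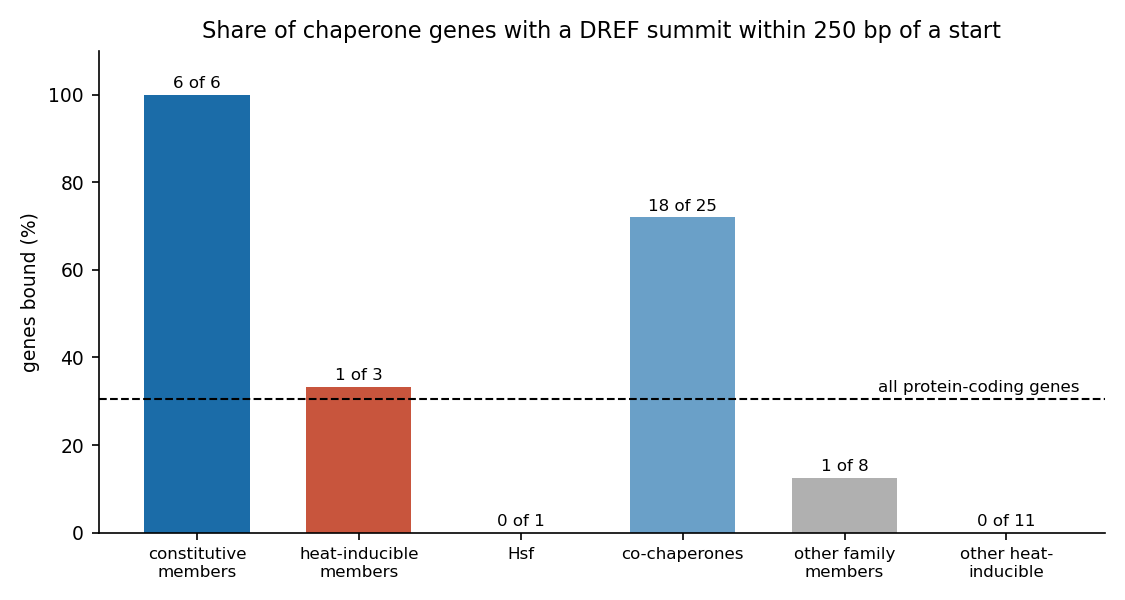
Percentage of genes with a conservative DREF summit within 250 bp of a start in each chaperone list, with the counts above the bars and the share of all 13945 protein-coding genes as a dashed line. All 6 constitutive genes and 18 of 25 co-chaperones are bound, against the line of 30.6%. Of the genes listed as heat-inducible, 1 of 3 and 0 of 11 are bound. The 3 are too few to place against the line, and calls at the Hsp70 genes among the 11 are uncertain. The bound gene DnaJ-1, named after its values were seen, is induced by heat but is counted with the co-chaperones.

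Hsp26 and Hsp27 lie in a cluster of small heat shock genes on 3L, which was chosen for description after its values were seen. Of its 7 genes named as heat shock genes, Hsp27 was the only one bound. The others were Hsp67Bc, Hsp67Bb (CG4456 in the annotation), Hsp22, Hsp26, Hsp67Ba and Hsp23, whose highest ranked-list signal was 65.4, at a summit shared by Hsp67Bc and Hsp67Bb. The peaks at 3 neighbouring genes not named as heat shock genes were stronger than that of Hsp27. These were CG4452 at 1236, the ferredoxin gene Fdx1 at 792 and the kinesin gene Klp67A at 477. CG4461, within the cluster, was not bound.

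**Figure D4:**
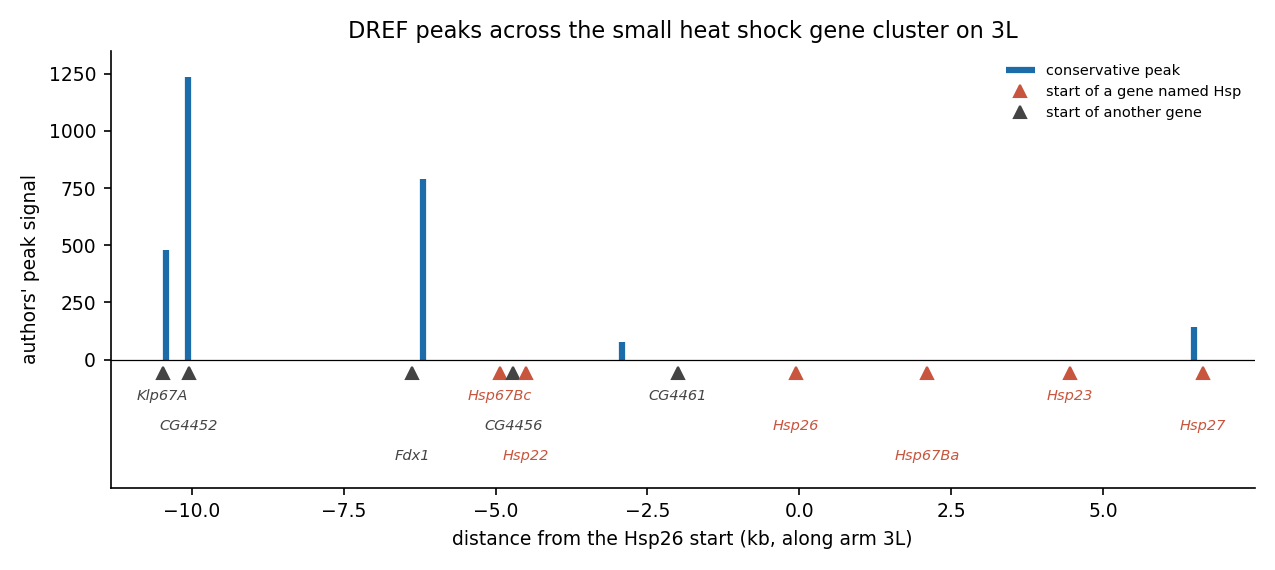
Signals of the conservative DREF peaks across the small heat shock gene cluster on 3L, plotted by distance in kb from the Hsp26 start, with gene starts as triangles below. The strongest peaks, 1236 and 792, lie at CG4452 and Fdx1, and of the genes named as heat shock genes only Hsp27, with 144, has a peak at its start.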

How the data were processed

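DREF-eGFP chromatin immunoprecipitation was analysed from deposited peak lists in dm6 coordinates, for 2 biological replicates and for both together. Per the file notes, thresholded and ranked lists came from an irreproducible discovery rate procedure run by the authors on each replicate's alignments or on both. Each deposited list gives per peak a score, read here as the scaled irreproducible discovery rate, the authors' signal, which is not stated to be scaled for depth, the −log10 of a q-value, and the summit's offset from the peak start. The labels and file notes name no aligner or peak caller, and the control experiment that the labels list as possible was not analysed here. Read depth is unknown.

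Starts came from Ensembl release 115 (BDGP6.54) and sequence from the RefSeq copy of Release 6. Of 55 listed chaperone genes 54 were matched, 4 of them by a RefSeq synonym, and l(2)tid was left out because its synonym was shared. Exact motif matches were counted on both strands within 100 bp of a summit and from 250 bp before to 50 bp after a start. Python 3.11.15, pandas 2.3.3, numpy 2.4.6, SciPy 1.17.1 and matplotlib 3.10.9 were used, and the calling of genes and motifs was tested on simulated data.

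The members and lists were chosen with earlier results of these data known. Named genes were the 10 members, up to 5 bound genes by signal and 5 unbound by name in each other list, genes sharing a member's peak, the nearest conservative peak of each unbound member, and the 2 genes nearest in replicate signal to the strongest and weakest bound members. Genes named outside this rule are marked in the text. Alternatives covered the distance limit, the overlap, the list, the q-value, the peaks above the median signal and each replicate alone.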

Additional observations from a re-analysis of the deposited data

How the results depend on the processing

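With the main settings 6 constitutive genes, 1 heat-inducible gene and 0 of 1 for Hsf were bound. Of 56 alternative counts 49 kept within 1.5 times the main count and 7 moved. The heat-inducible count fell to 0 with a limit of 100 bp and among conservative peaks above the list's median signal of 289, since the Hsp27 summit is 140 bp from the start and its signal is 144. Hsf was called (1) in the other thresholded list of both replicates and without replicate 1. The count of other family members was 2 in the other thresholded list, where Gp93 was added, and 0 among peaks above the median. Leaving out replicate 1 or 2 gave 5 to 6 constitutive genes, 1 to 1 heat-inducible genes, 0 to 1 for Hsf, 16 to 18 co-chaperones, 1 to 2 other family members, 0 to 0 further heat-inducible genes and 3750 to 4006 genes in all. Constitutive counts were 5 where the interval had to cover a start and 4 among peaks above the median. The Hsp83 signal became 1894 with a limit of 500 bp, where the CG14965 summit is counted. No paired analysis was possible because there is 1 group. Without read counts no interval stands behind a signal, peaks of neighbouring genes are not independent, and a gene without a peak is not shown to lack DREF.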

Other observations

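TATA boxes at the usual distance from a start, a count chosen after the data were seen, were present at most heat-inducible and few other genes of the chaperone lists. TATAAA began 20 to 35 bp before a start at 8.54% of all protein-coding genes, at 2.25% of DREF-bound genes and at 11.3% of unbound genes. All 3 heat-inducible members had it, each at 28 bp, as did 8 of the 11 further heat-inducible genes. It was present at 2 of the 6 constitutive genes, at 27 bp before the first start of Hsc70-4 and at 30 bp before the second start of Hsp83, which lies 488 bp from the Hsp83 summit. It was present at 1 of 25 co-chaperones, stv, which was not bound, and not at Hsf. Of the 8 other genes of the chaperone families it was present at 1, l(2)efl, which itself encodes a small heat shock protein and was not bound. Hsp27 and Hsc70-4 thus had both a DREF summit and a TATA box at the same start, and their summits lay 140 and 85 bp upstream of that start.

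DnaJ-1, named after its values were seen, encodes a J-domain co-chaperone that is induced by heat. It was bound, with a signal of 1016 and an exact DRE within 100 bp of its summit. DnaJ-1 was counted among the co-chaperones, so the heat-inducible lists do not hold every gene induced by heat. The counts bound in those lists therefore apply to the listed genes only.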
